A study of Mus musculus with 7 samples.

Results

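The genes of oxidative phosphorylation were followed across the data by their symbols. The members were the table entries whose names begin with Nduf, Uqcr, Atp5 or Cox and a digit, the genes Sdha to Sdhd, and the protein-coding genes with the mt- prefix. There were 123 such entries among the 50600 of the bulk table: 102 nuclear genes, 13 mitochondrially encoded genes and 8 entries named as pseudogenes. The single-cell table held 114 members among 15536 genes, 101 of them nuclear and 13 mitochondrially encoded. The nuclear genes of the bulk table were sorted by symbol, 36 to complex I, 4 to complex II, 8 to complex III, 20 to complex IV and 17 to complex V. The other 17 were assembly factors whose names match the same patterns.

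The bulk samples were 4 libraries of primary neural stem and progenitor cell (NSPC) cultures grown from the dentate gyrus (DG) of C57Bl6J mice aged 6 to 8 weeks, and 2 libraries of whole DG from C57Bl6J mice aged 7 to 9 weeks. The cultures, 2 female (F1, F2) and 2 male (M1, M2), were kept in 20 ng/ml EGF and 20 ng/ml FGF2 and taken at passages 6 to 15, while 1 whole DG library was female (F1) and 1 male (M2). A single-cell library held 3 mixed NSPC cultures, 2 female and 1 male, from mice aged 6 to 9 weeks. These cultures were also kept in 20 ng/ml EGF and 20 ng/ml FGF2 and taken at passages 6 to 15. The cells of this library carry only the authors' cluster number, 0 to 5. No allele, transgene or drug treatment is named for any group. Bulk totals were 9917697 to 11747408 counts in the cultures and 16676618 and 17351636 counts in whole DG. The culture libraries were made with a full-length low-input kit and the whole DG libraries with a directional kit, so kit and tissue cannot be told apart wherever the groups are compared. The labels give no link from a culture to an animal, so p-values measure the spread between these libraries.

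Oxidative phosphorylation passes electrons from NADH through complex I, or from succinate through complex II, to complex III and then through cytochrome c to complex IV, which reduces oxygen. Complexes I, III and IV pump protons across the inner mitochondrial membrane, and complex V, the ATP synthase, uses the gradient to make ATP. Complex II is wholly nuclear encoded, whereas each of the other complexes joins nuclear subunits to subunits made from the mitochondrial genome. In the dentate gyrus, adult neural stem cells are known for a shift in energy metabolism as they proliferate and become neurons.

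Promoter sequences of the nuclear members are given first. A link of any motif to a difference between the groups was not tested. RefSeq promoters on GRCm38.p6, which run from 250 bases before to 50 bases after the start, were at hand for 81 of the 102 nuclear genes. Motifs of 4 factors known from respiratory genes were searched on both strands. The NRF1 motif, whose 10 letters stand in capitals in the first 5 lines below and read the same on both strands, stood in the promoters of 7 of 81 members (8.64%), beside 1.07% of all 27025 genes with a promoter and 2.1% of the 11804 genes that were also tested in the bulk libraries. The ETS motif CCGGAAG, bound by GABPA, stood in 23 members (28.4%), beside 9.93% of all genes with a promoter and 17.8% of those tested. The YY1 motif AAGATGGCG stood in 9 members (11.1%), beside 1.64% of all genes with a promoter and 3.11% of those tested. The estrogen-related receptor motif TCAAGGTCA stood in 2 members (2.47%), beside 0.466% of all genes with a promoter and 0.373% of those tested. No 2 matches of different motifs shared bases in a member's promoter. These shares describe letters in a window and do not show binding.

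The following lines show every NRF1 or estrogen-related receptor motif found upstream of the start of a nuclear member, with up to 25 bases on each side, read 5′ to 3′ on the gene's own strand. Capitals mark the motif.
Atp5g2, chr15:102671055-102671114, minus strand: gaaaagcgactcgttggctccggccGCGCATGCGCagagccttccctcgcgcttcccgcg
Ndufa11, chr17:56717677-56717736, plus strand: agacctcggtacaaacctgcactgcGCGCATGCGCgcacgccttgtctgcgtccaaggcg
Ndufaf4, chr4:24897945-24898004, plus strand: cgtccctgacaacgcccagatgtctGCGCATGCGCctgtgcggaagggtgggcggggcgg
Cox6a1, chr5:115349086-115349145, minus strand: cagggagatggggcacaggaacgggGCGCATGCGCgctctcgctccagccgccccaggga
Atp5k, chr5:108434415-108434474, minus strand: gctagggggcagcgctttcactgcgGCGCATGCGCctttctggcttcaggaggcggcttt
Atp5g3, chr2:73911345-73911403, minus strand: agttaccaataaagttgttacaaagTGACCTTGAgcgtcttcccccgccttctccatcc
The first 5 lines carry the NRF1 motif and the last the estrogen-related receptor motif in its reverse orientation. Among these 6 genes, Atp5g2, Ndufa11, Ndufaf4, Cox6a1 and Atp5g3 were higher in the cultures than in whole DG, and Atp5k did not pass the test. In the promoter windows of the 12 members with a promoter that were tested and not called higher, 2 (16.7%) held the NRF1 motif. Of the 68 called higher, 5 (7.35%) held it, so the motif was present on both sides of the threshold. The ETS motif stood in 21 of those 68 (30.9%) and in 2 of those 12 (16.7%). The YY1 motif stood in 9 and 0, and the estrogen-related receptor motif in 2 and 0.

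Nuclear members were, as a group, more abundant in the cultures. Their summed level was 19630, 20150, 21780 and 22640 CPM (counts scaled to 1000000 per library, on library sizes scaled by the trimmed mean of M values) in cultures F1, F2, M1 and M2, against 10310 and 9954 CPM in whole DG F1 and M2. All 4 cultures lay above both whole DG libraries, and the 2 male cultures lay above the 2 female ones. In raw counts the nuclear members took 2.02% to 2.31% of each culture library and 0.957% and 0.943% of the whole DG libraries. In bulk tissue, a different share of cells of one type and a different amount of RNA per cell cannot be told apart.

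Of 99 nuclear members with enough counts to test, 79 (79.8%) were higher in the cultures at an adjusted p under 0.05, 3 were lower and 17 did not pass (edgeR quasi-likelihood test, Benjamini-Hochberg over 18088 genes). Across all genes tested, 35.6% were called higher and 41.7% lower (77.3% in either direction), so the groups differed widely and the members' share is to be read against those values. The median log2 difference of the members was 0.88, beside -0.13 for all genes. Without the test, 82 of 102 members had all 4 cultures above both whole DG libraries and 7 had all 4 below, beside 38.6% and 45.0% of all tested genes. Removing trends of the counts with gene length and GC content left 69 members higher and 6 lower of 97, with a median of 0.74, beside 37.0% and 40.1% of genes. The members that overlap no other annotated gene gave 42 higher and 2 lower of 52. The table does not state whether strand was used in counting, and 45 of the 100 nuclear members found in the annotation overlap another gene, which leaves their values uncertain to that extent.

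**Figure D1:**
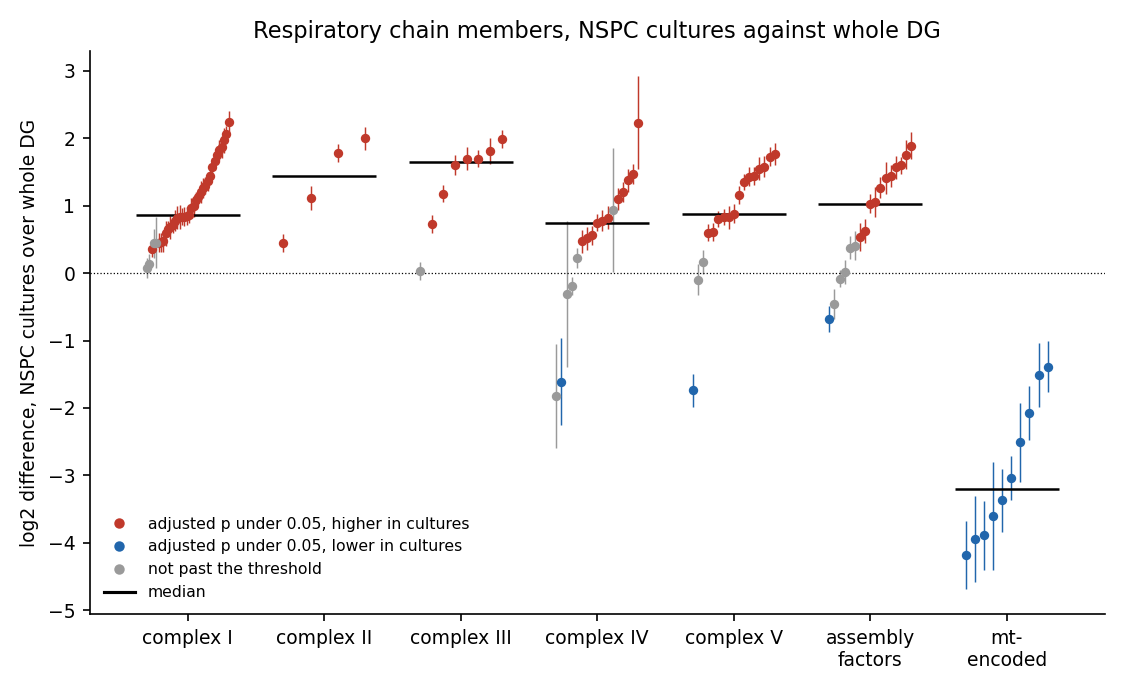
Log2 difference, NSPC cultures (n = 4) over whole DG (n = 2), of each tested member, ordered within its complex, with the standard error as bars and the median as a black line. Complex I to V and assembly factors are nuclear members with medians of 0.75 to 1.65, and the 10 tested mitochondrially encoded members all lie below 0.

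Complex I, the NADH dehydrogenase, had 32 of its 36 nuclear members higher, 4 not past the threshold and none lower, with log2 differences of 0.08 to 2.24. Ndufc2, an accessory subunit of the membrane arm, stood at 327.1, 377.1, 395.0 and 437.5 CPM in cultures F1, F2, M1 and M2, against 85.0 and 77.8 CPM in whole DG. The cultures did not overlap whole DG, and the log2 difference was 2.24 ± 0.16 (SE, adjusted p = 5.25e-06). Ndufab1, the mitochondrial acyl carrier protein, had 211.3 to 232.9 CPM in the cultures and 50.8 and 54.1 CPM in whole DG, a log2 difference of 2.07 ± 0.12 (SE, adjusted p = 2.02e-06).

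Ndufb3 and Ndufb10, accessory subunits of the membrane arm, overlapped between the groups and did not pass, at log2 differences of 0.08 and 0.14. With length and GC trends removed, Ndufb3 was lower at -0.46 (adjusted p = 0.0234), so its direction depends on that choice. The other complex I members that did not pass were Ndufs1 and Ndufs3, core subunits of the peripheral arm, at 0.44 and 0.45. Ndufs1 passed as higher with upper quartile scaling (0.62), without culture M2 (0.55) and with trends removed (0.65). All 9 members with the YY1 motif were higher in the cultures. Most members with a promoter were, with 68 called higher and 12 tested and not called higher. Of the 9, 5 belong to complex I (Ndufc1, Ndufa9, Ndufs4, Ndufs6 and Ndufs7), each with the motif within 50 bases after the start. A link of the motif to the difference was not tested.

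In complex II, the succinate dehydrogenase, all 4 subunits were higher, but by unequal amounts. Sdha, the flavoprotein that oxidises succinate, stood at 626.5, 613.8, 715.7 and 622.4 CPM in the cultures, against 485.3 and 457.6 CPM in whole DG. The groups did not overlap, with a log2 difference of 0.45 ± 0.13 (SE, adjusted p = 0.0103), and the adjusted p exceeded the threshold when either whole DG library was left out. Sdhb, the iron-sulfur subunit that partners Sdha, differed by 1.78 ± 0.13, at 286.2 to 326.3 CPM in the cultures and 94.6 and 84.8 CPM in whole DG. The membrane anchors Sdhc and Sdhd differed by 1.11 ± 0.18 and 2.00 ± 0.17 (SE; adjusted p of the 3 genes between 6.76e-06 and 0.000575).

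Complex III, the cytochrome bc1 complex, had 7 of its 8 nuclear members higher, with a median log2 difference of 1.65. Its 2 core proteins had unequal differences between the groups. Uqcrc1 stood at 342.8, 351.7, 350.9 and 389.5 CPM in the cultures, against 110.9 and 109.5 CPM in whole DG, a log2 difference of 1.70 ± 0.13 (SE, adjusted p = 5.99e-06). Uqcrc2 stood at 223.0, 211.1, 266.4 and 219.7 CPM in the cultures, against 233.9 and 215.9 CPM in whole DG. The groups of Uqcrc2 overlapped, with a log2 difference of 0.03 ± 0.13 (SE, adjusted p = 0.836). The difference between the 2 genes was not tested, and with length and GC trends removed Uqcrc2 was lower by a log2 difference of -0.31 (adjusted p = 0.0369). On GRCm38, Uqcrc2 (chromosome 7, 120635176 to 120659524) overlaps another annotated gene and Uqcrc1 (chromosome 9, 108936633 to 108949623) does not.

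The other complex III members were all higher. Uqcrb, a small subunit needed for assembly, was at 202.3 to 243.0 CPM in the cultures and at 55.8 and 53.8 CPM in whole DG, a log2 difference of 1.99 ± 0.14 (SE, adjusted p = 3.98e-06). Uqcrfs1, the Rieske iron-sulfur protein, was higher by 1.18 ± 0.13. The carrier protein cytochrome c (Cycs) and the cytochrome c1 subunit (Cyc1), whose symbols fall outside the patterns, were also higher, by 2.06 ± 0.14 and 1.48 ± 0.12 on the log2 scale (SE, adjusted p = 3.66e-06 and 1.27e-05). Cycs stood at 412.4 to 490.3 CPM in the cultures and 110.5 and 103.7 CPM in whole DG.

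Complex IV, cytochrome c oxidase, spanned log2 differences of -1.82 to 2.23. Of its 17 tested nuclear members, 11 were higher, 1 was lower and 5 did not pass. Cox5a, a subunit on the matrix side of the enzyme, was higher by 1.47 ± 0.15 and Cox8a by 1.10 ± 0.16 (SE, adjusted p = 3.34e-05 and 0.000316). Cox8a stood at 360.8, 392.1, 388.3 and 494.9 CPM in the cultures, against 195.5 and 187.3 CPM in whole DG, with no overlap. Cox4i1, the largest nuclear subunit of the enzyme, stood at 406.3, 431.0, 459.2 and 544.9 CPM in the cultures, against 409.3 and 377.0 CPM in whole DG. Culture F1 lay between the whole DG libraries, and the log2 difference of 0.23 ± 0.15 did not pass (SE, adjusted p = 0.192). Under upper quartile scaling and with length and GC trends removed, Cox4i1 passed as higher, at 0.41 and 0.36.

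Complex IV also holds paralogues with tissue-restricted forms. Cox6b2, a form known from testis, had 25, 40, 100 and 41 counts in cultures F1, F2, M1 and M2 (2.07, 3.47, 9.55 and 4.00 CPM), against 21 and 11 counts in whole DG (1.36 and 0.669 CPM). All cultures lay above both whole DG libraries and M1 was highest, with a log2 difference of 2.23 ± 0.69 (SE, adjusted p = 0.017). The common form Cox6b1 was higher as well, at 311.0 to 407.2 CPM in the cultures and 143.8 and 120.2 CPM in whole DG. Cox6b2 did not pass without whole DG M2 (1.8) or with the replicate block (1.59).

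Cox7a1, the form of heart and skeletal muscle, had 5, 3, 18 and 5 counts in cultures F1, F2, M1 and M2, against 34 and 36 counts in whole DG. Its log2 difference was -1.61 ± 0.65 (SE, adjusted p = 0.0498), and it kept its call in 8 of 16 alternatives. The widely expressed Cox7a2 was higher by 1.2 ± 0.15, and Cox7a2l, a protein that joins complexes III and IV, overlapped between the groups at -0.19 (adjusted p = 0.234) but was lower at -0.59 with length and GC trends removed (adjusted p = 0.0029).

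Cox6a2 and Cox8b, the muscle forms of their subunits, varied among the cultures rather than between the groups. Cox6a2 had 52, 7, 46 and 142 counts in cultures F1, F2, M1 and M2 (4.30, 0.607, 4.39 and 13.9 CPM), against 60 and 35 counts in whole DG (3.87 and 2.13 CPM). Cox8b had 12, 0, 11 and 53 counts in the cultures, against 44 and 26 in whole DG. For both genes M2 was the highest and F2 the lowest culture, and neither passed between the groups (adjusted p = 0.37 and 0.803), though Cox6a2 passed as higher over the libraries named F1 or M2 (1.62). Cox4i2 had 1, 0, 0 and 2 counts in the cultures, against 9 and 20 counts in whole DG, and was too low to test. Summed per group and scaled by library size it was 13.4-fold higher in whole DG, with an exact interval of 4.16 to 68.9 that covers counting error only. Ndufa4l2, a paralogue of the complex IV subunit Ndufa4, had 12 counts over the 4 cultures and 15 and 16 counts in the whole DG libraries, and its log2 difference of -1.82 did not pass (adjusted p = 0.0589), though it did with DESeq2 size factors (-1.92) and without culture F1 (-2.55). Cox4i2 and Ndufa4l2 are known from the mural cells of brain vessels. The 8 mural markers summed to 72.1 to 217 CPM in the cultures and 115 to 130 CPM in whole DG, none of them at 0 counts in all cultures. Of these, 6 were lower in the cultures, Pdgfrb holding 1 count over the 4 cultures and 523 in whole DG, while Cspg4, which progenitors of the oligodendrocyte lineage share, was higher. The part of mural cells in these values was not tested. Cox7b2 had 6 counts in the cultures and 5 in whole DG, and Cox8c was at 0 in every library.

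**Figure D2:**
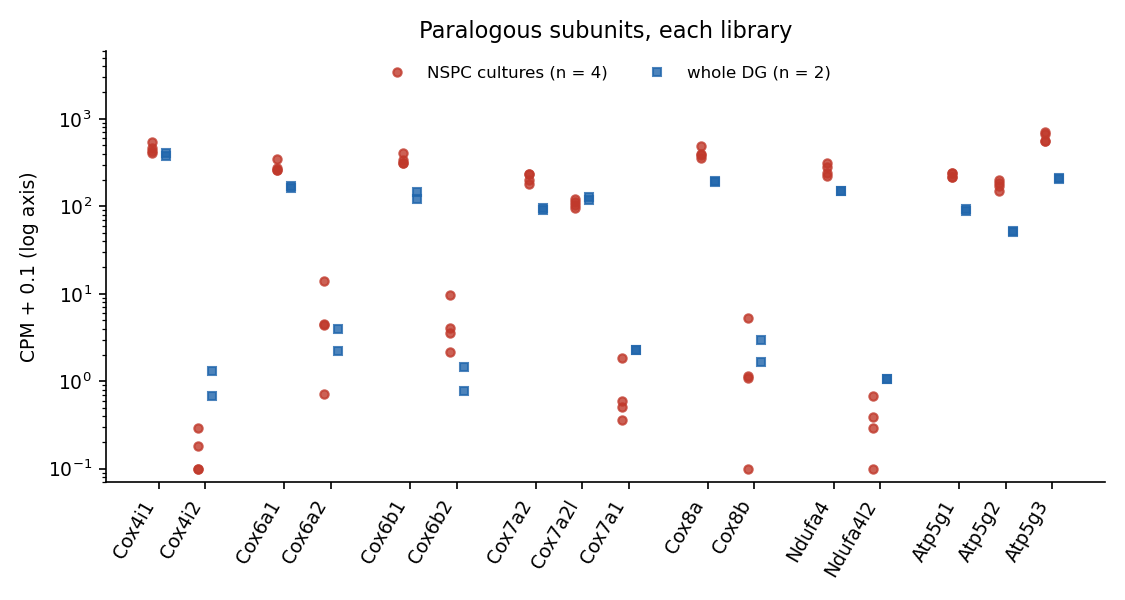
Level of paralogous subunits in each library, as CPM plus 0.1 on a log axis, for NSPC cultures (circles, n = 4) and whole DG (squares, n = 2). The common forms lie above 50 CPM in every library, and Cox6a2 and Cox8b spread widely among the 4 cultures, with M2 highest and F2 lowest.

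Of the 17 members placed with complex V, the ATP synthase, by their Atp5 symbols, 14 were higher, 1 was lower and 2 did not pass. The lower one, Atp5sl, is known for complex I assembly. The catalytic subunit Atp5b stood at 3039, 3049, 3307 and 3474 CPM in the cultures, against 1213 and 1159 CPM in whole DG. It was higher by 1.44 ± 0.13 on the log2 scale (SE, adjusted p = 2.03e-05), and its non-catalytic partner Atp5a1 by 0.80 ± 0.12 (SE, adjusted p = 0.00049). The 3 genes Atp5g1, Atp5g2 and Atp5g3 make the same mature c subunit of the proton ring from different precursors. Atp5g1 was at 218.3 to 242.1 CPM in the cultures and 88.5 and 92.3 CPM in whole DG. Atp5g2 was at 150.4 to 202.0 CPM in the cultures and 51.4 and 51.8 CPM in whole DG, and Atp5g3 at 555.6 to 704.3 CPM in the cultures and 210.8 and 207.0 CPM in whole DG. All 3 were higher without overlap, by 1.35 ± 0.12, 1.77 ± 0.16 and 1.58 ± 0.16 (SE, adjusted p = 1.93e-05, 1.6e-05 and 3.05e-05).

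The small membrane subunits of the ATP synthase that hold its dimers were unequal. Atp5l was higher by 0.88 ± 0.14 (SE, adjusted p = 0.000626), whereas Atp5k stood at 45.1, 47.3, 58.9 and 66.0 CPM in the cultures, against 48.9 and 47.9 CPM in whole DG. The Atp5k libraries overlapped, with a log2 difference of 0.17 (adjusted p = 0.424). Atp5sl was lower, with 6.93 to 11.3 CPM in the cultures and 29.3 and 31.3 CPM in whole DG, a log2 difference of -1.74 ± 0.24 (SE, adjusted p = 0.000231). Its product is named for likeness to an ATP synthase factor and is known for complex I assembly.

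Of the 17 assembly factors among the members, 11 were higher, 1 lower and 5 did not pass. Cox14, Cox15 and Ndufaf6 were higher by 1.44 ± 0.16, 1.60 ± 0.13 and 1.89 ± 0.20 (SE, adjusted p = 6.51e-05, 1.12e-05 and 4.83e-05); Cox15 takes part in making the heme of complex IV, and Ndufaf6 acts early in complex I assembly. Ndufaf5, a complex I assembly methyltransferase homologue that acts on Ndufs7, stood at 15.2, 16.4, 14.0 and 20.2 CPM in the cultures, against 27.9 and 24.9 CPM in whole DG. All cultures were below whole DG, with a log2 difference of -0.68 ± 0.19 (SE, adjusted p = 0.0111) that did not pass without whole DG F1 (-0.59) or with the replicate block (-0.55). A list of 32 assembly factors outside the naming patterns had 15 higher (46.9%) and 4 lower (12.5%), with a median of 0.43, beside 35.6% and 41.7% of all genes and their median of -0.13. Its most abundant members, Coa5 and Higd1a, were higher by 1.24 and 0.43, though Higd1a did not pass without either whole DG library (adjusted p = 0.0705 and 0.0691) or with trends removed (0.28), and the lower ones were Ttc19, Surf1, Tmem126b and Atpaf1. Ttc19, which clears fragments of the Rieske protein from complex III, differed by -4.27 on the log2 scale (adjusted p = 1.44e-06). It stood at 3.41 to 6.59 CPM in the cultures and 91.7 and 83.0 CPM in whole DG. In the single-cell library Ttc19 held 39.98 of every 1000000 molecules. Surf1, Tmem126b and Atpaf1 held 29.06, 15.22 and 19.95 there, beside means of 26.52, 23.42 and 24.47 CPM in the bulk cultures. The scales differ, and whether Ttc19 was undercounted in the bulk cultures was not tested.

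Other genes around the chain were read from lists chosen for their roles, and their counts stand beside 35.6% of all genes called higher and 41.7% called lower. Of 12 genes of mitochondrial DNA upkeep and expression, 8 were higher and none lower, among them the polymerase Polg at 0.89 (adjusted p = 0.000293), while Lrpprc, which stabilises mitochondrial mRNA, had 0.24 and did not pass. Lrpprc passed as higher in 4 alternatives, at 0.33 without culture F2, 0.34 over the libraries named F1 or M2, 0.43 with upper quartile scaling and 0.58 with trends removed. Tfam, which packages mitochondrial DNA, also did not pass, at 0.13 (adjusted p = 0.426). Of 9 nuclear regulators, 5 were higher and 3 lower. Nrf1 was higher by 1.78 ± 0.19, Gabpa by 0.95 ± 0.13 and Pprc1 by 1.08 ± 0.19 (SE, adjusted p = 4.86e-05, 0.000276 and 0.000872). Yy1, Ppargc1b and Esrra were lower in the bulk counts, Yy1 by a log2 difference of -2.52 and Esrra by -1.24 (adjusted p = 1.17e-05 and 0.00105). In the single-cell library Yy1 held 88.81 of every 1000000 molecules, against 8.98 to 15.1 CPM in the bulk cultures. Nrf1 lay the other way, at 19.6 against 50.9 to 72.6 CPM, as did Gabpa, at 16.55 against 81.8 to 98.6 CPM. Esrra was at 20.59, against 14.5 to 25.8 CPM. The scales differ, and whether Yy1 was undercounted in the bulk cultures was not tested. Of 13 citric acid cycle genes, 10 were higher and Idh3b was lower, with Mdh2, the malate dehydrogenase of the mitochondrion, higher by 1.61.

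Marker lists for other cell types were read beside these differences. Summed levels of 7 mature neuron markers were 34.3 to 44.7 CPM in the cultures and 9800 to 10300 CPM in whole DG, and all 7 were lower. Lists of 4 genes each for oligodendrocytes, microglia and endothelium summed to at most 3.82 CPM in a culture and at least 75.1 CPM in a whole DG library, with the endothelial marker Cldn5 and the microglial marker C1qa at 0 in all cultures. The 6 markers of neural stem and progenitor cells summed to 4240 to 5280 CPM in the cultures and 699 to 742 CPM in whole DG. Of these, 5 were higher and Sox2 was lower. Sox2 stood at 5.29 to 7.85 CPM in the bulk cultures but held 167.8 of every 1000000 molecules in the single-cell library. There, Vim and Mki67 (1768 and 196.8) also lay above their bulk culture CPM. Top2a (309.7) lay within its bulk range, and Nes and Slc1a3 (677.7 and 753.2) below theirs. The scales differ, and whether Sox2 was undercounted in the bulk cultures was not tested. The 4 astrocyte markers summed to 255 to 728 CPM in the cultures and 2490 to 2910 CPM in whole DG, 1 being higher and 2 lower. All 5 parvalbumin interneuron markers were lower, with sums of 50.6 to 63.3 CPM in the cultures and 784 to 825 CPM in whole DG. All 4 striated muscle markers were lower too, with sums of 1.27 to 3.97 CPM in the cultures and 35.6 to 44.9 CPM in whole DG, the muscle genes Acta1 and Mb being at 0 in all cultures. The part of cell type composition in the members' differences was not tested.

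The mitochondrially encoded members went the other way, on few counts. All 13 together had 66, 85, 107 and 49 counts in cultures F1, F2, M1 and M2, against 700 and 650 counts in whole DG F1 and M2. This is 4.78 to 10.2 CPM in the cultures and 45.2 and 39.5 CPM in whole DG, so that every culture lay below both whole DG libraries. All 10 members with enough counts to test were lower in the cultures, with log2 differences of -4.18 to -1.39 and a median of -3.21. All 13 had every culture below both whole DG libraries, beside 45.0% of all genes tested.

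By complex, mt-Co1, the catalytic subunit of cytochrome oxidase, had 11, 12, 20 and 12 counts in the cultures, against 171 and 160 in whole DG. Its log2 difference was -3.04 ± 0.33 (SE, adjusted p = 5.52e-05). The other core subunits of complex IV, mt-Co2 and mt-Co3, were lower by -3.37 ± 0.47 and -2.51 ± 0.59. Cytochrome b of complex III (mt-Cytb) had 10, 23, 23 and 12 counts in the cultures, against 100 and 108 in whole DG, a difference of -2.07 ± 0.40 (SE, adjusted p = 0.00149). Of the membrane core of complex I, mt-Nd2 had 6 counts over the 4 cultures and 83 over the whole DG libraries, the furthest difference at -4.18 ± 0.50 (SE, adjusted p = 9.96e-05). The differences of mt-Nd4, mt-Nd5 and mt-Nd6 were -3.95, -3.89 and -3.60, and that of mt-Nd1 was -1.51 (adjusted p of the 4 genes between 0.000166 and 0.0173). The ATP synthase subunit mt-Atp6 had 15, 21, 16 and 9 counts in the cultures, against 46 and 70 in whole DG, a difference of -1.39 ± 0.38 (SE, adjusted p = 0.00972).

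Leaving out a whole DG library left mt-Nd1 (either library), mt-Atp6 (without M2) and mt-Co3 (without F1) short of the threshold, with log2 differences of -1.71 to -1.11 for the first 2 genes and -1.99 for mt-Co3. The other 3 were too low to test. mt-Atp8 had 13 counts over the cultures and 28 over whole DG, 2.99-fold higher in whole DG (exact interval 1.5 to 6.29), and mt-Nd3 had 1 and 6 counts, 8.33-fold higher in whole DG (1.01 to 383). mt-Nd4l had 0 counts in the cultures and 20 in whole DG, at least 9.26-fold lower in the cultures if 3 counts are taken as the limit that 0 counts over the group allow.

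These bulk levels stand far below those of the single cells. Mitochondrially encoded members held 1072 of every 10000 molecules (UMIs) in the single-cell library of mixed cultures, but 0.000488% to 0.00108% of the counts of a bulk culture library and at most 0.0042% of a whole DG library. Of the 13 genes, 10 overlap another annotated gene, while mt-Co2, mt-Cytb and mt-Nd3 do not. Those without overlap also had few bulk counts, at 12, 68 and 1 over the cultures and 92, 208 and 6 over whole DG. In the single-cell library the same genes held 986426, 901911 and 204999 UMIs. The labels and notes do not state the strand and counting options of the bulk reads. The bulk values are therefore a comparison of what was counted, and how they relate to the mitochondrial RNA of the cells was not tested.

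**Figure D3:**
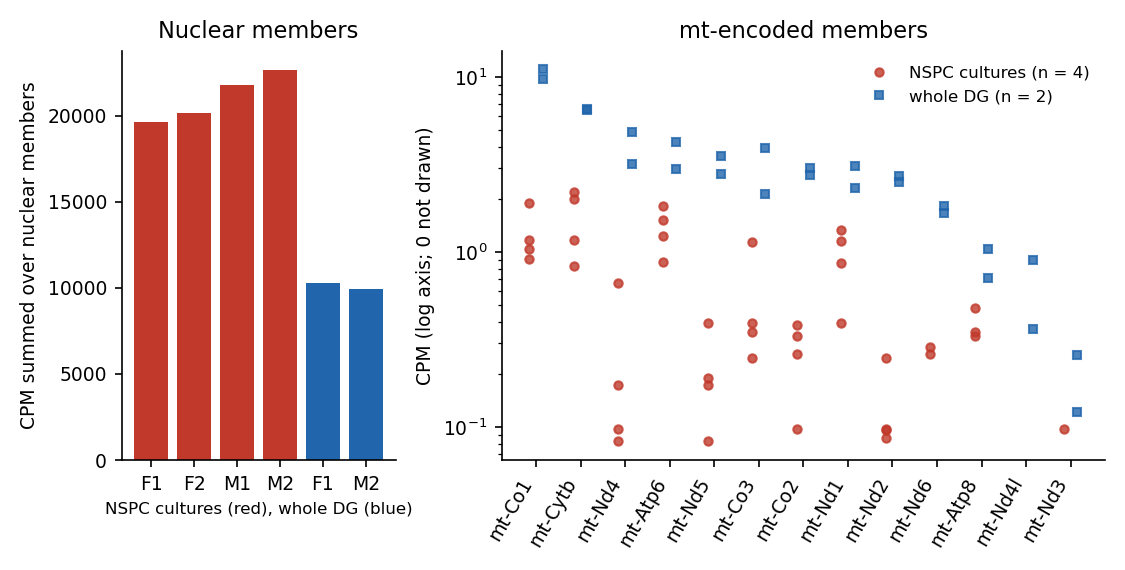
Left, CPM summed over the 102 nuclear members in each library (bars from 0). Right, CPM of each mitochondrially encoded member on a log axis, with values of 0 not drawn, for NSPC cultures (circles, n = 4) and whole DG (squares, n = 2); the nuclear sum is higher in all cultures and all 13 mitochondrial members are lower.

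Among the cultures, F2 stood apart on chromosome 1. Over the 565 tested genes there with a mean of at least 10 CPM, the median log2 ratio of F2 over the mean of the other 3 cultures was 0.45, a ratio of 1.37. The medians of F2 over the 19 other chromosomes lay between -0.05 and 0.02. No other culture had a chromosome 1 median above -0.15. Of the 7 nuclear members on chromosome 1, all were highest in F2, beside 78.6% of all chromosome 1 genes, so the members' pattern is that of the chromosome. Of the 85 members on other chromosomes 3 were highest in F2 (Ndufaf6, Ndufaf3 and Ndufb8), beside 22.1% of genes.

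The 7 chromosome 1 members serve 3 complexes and an assembly step. Ndufs1, which carries iron-sulfur clusters of the peripheral arm, stood at 194.5, 296.2, 273.0 and 181.5 CPM in cultures F1, F2, M1 and M2, against 181.4 and 167.6 CPM in whole DG. Ndufa10 stood at 167.9, 259.8, 186.3 and 175.0 CPM in the cultures, against 134.9 and 126.4 CPM in whole DG. Sdhc, a heme-binding anchor of complex II, stood at 160.3, 243.4, 192.4 and 186.1 CPM in the cultures, against 90.9 and 90.8 CPM in whole DG. In all 3 genes F2 was the highest culture, and no culture fell below a whole DG library. Cox5b stood at 139.8, 209.9, 154.2 and 165.8 CPM in the cultures and 122.1 and 120.2 CPM in whole DG. With all libraries it passed between the groups at a log2 difference of 0.47 (adjusted p = 0.0366). Cox5b kept its call in 9 of 16 alternatives, and with length and GC trends removed it did not pass, at 0.07 (adjusted p = 0.704). Over the 7 members, which include Ndufb3 and the complex IV assembly factor Cox20, the log2 ratio of F2 over the other cultures ran from 0.24 to 0.56. These genes were singled out after their values were seen.

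Ndufs3, a core subunit of the peripheral arm of complex I, was the opposite case and was also chosen after its values were seen. It stood at 61.6, 24.4, 71.5 and 61.4 CPM in cultures F1, F2, M1 and M2, against 45.6 and 34.2 CPM in whole DG. F2 lay below both whole DG libraries and the other 3 cultures above both. With all libraries its log2 difference was 0.45 ± 0.38 (SE, adjusted p = 0.3), and without F2 it was 0.71 (adjusted p = 0.00635); with the replicate block, which also leaves out F2, it was 0.67 (adjusted p = 0.0125). The gene lies on the minus strand of chromosome 2, from 90894634 to 90904827 on GRCm38, and overlaps another annotated gene.

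**Figure D4:**
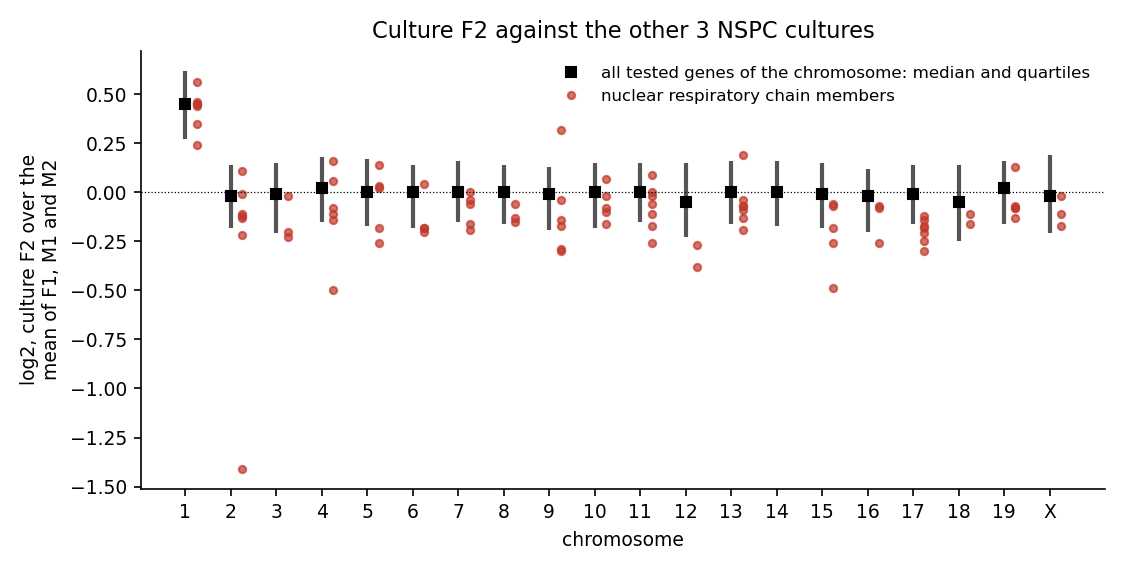
Log2 ratio of culture F2 over the mean of cultures F1, M1 and M2, by chromosome. Squares and bars give the median and quartiles of all tested genes, and circles the nuclear members; chromosome 1 stands at 0.45, the others between -0.05 and 0.02, and the lone circle at -1.41 on chromosome 2 is Ndufs3.

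Female and male cultures were compared member by member. No member of 105 was called between F1 and F2 on the one side and M1 and M2 on the other (edgeR, adjusted p under 0.05), beside 4 of 15140 genes (0.0264%). Of the members 6 had an unadjusted p under 0.05, and the smallest adjusted p was 0.776. The nominal rate at that unadjusted threshold is about 1 in 20, and the share over all genes is not given. These 6 members are therefore not read as differing between the sexes. DESeq2 called 0 members, with a smallest adjusted p of 0.596. Complex IV sums were 2782 and 2934 CPM in the female cultures and 3236 and 3569 CPM in the male cultures, and complex V sums were 7913 and 7990 CPM in the female cultures and 8760 and 9130 CPM in the male cultures. The sexes did not overlap in these sums, nor in those of complexes I, II and III and the assembly factors, the male cultures being higher in each. For the assembly factors the sums lay close, at 667.0 and 661.0 CPM in F1 and F2 and 696.7 and 667.6 CPM in M1 and M2. The sums were given no test, and no share over all genes is given beside them. Without a filter on low counts Cox6a2 and Cox8b were called, and without F1, which leaves F2 as the lone female culture, assumed to vary like the male ones, Ndufs3 was. No gene of 18088 (0.0%) had a difference between cultures and whole DG that itself differed between the sexes (edgeR interaction test, adjusted p under 0.05), and 0 members did so at an unadjusted p under 0.05; each sex had a single whole DG library, so the cultures alone supplied the spread for this test, and 0 calls say little about whether the sexes differ.

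In the single-cell library, 14912 cells of 2001 to 8531 UMIs held nuclear members at 440.6 per 10000 UMIs and mitochondrially encoded members at 1072 per 10000. The library is a single sample and the authors' clusters were made from the same cells, so the levels are described without a test, and intervals cover counting error only. Clusters 0 to 5 had 488.6, 433.7, 415.8, 442.8, 415.0 and 421.9 nuclear member UMIs per 10000. Cluster 0 was highest, 1.177-fold above cluster 4, whose exact interval of 413.5 to 416.4 overlaps that of cluster 2 (414.7 to 416.8). Mitochondrially encoded members followed a similar order, with 1208, 1022, 1000, 1094, 992.9 and 1081 per 10000 in clusters 0 to 5. Median depth was 3749 UMIs per cell in cluster 0 and 3431 to 5270.5 in the others, and thinning every cell to 2000 UMIs gave 489.0 in cluster 0 and 414.9 to 440.2 in the others.

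Cluster 0 was also the highest for most single members, while the lowest cluster varied. Of 92 nuclear members with at least 1000 UMIs, 70 (76.1%) were highest in cluster 0, as were 12 of 13 mitochondrially encoded members, beside 20.3% of 6150 genes. The lowest cluster was 5 for 43 nuclear members (46.7%), beside 39.0% of all genes. It was 4 for 25 (27.2%) and 2 for 22 (23.9%), beside 14.85% and 13.19% of all genes. Of the 13 mitochondrially encoded members, 9 were lowest in cluster 4. The median ratio of the highest to the lowest cluster was 1.239 for the nuclear members, beside 1.39 for all genes, so that most members were nearly even. Complex IV members held 141.6 UMIs per 10000 in cluster 0 and 116.2 to 125.5 in the others, and complex I members 144.9 in cluster 0 and 125.2 to 132.3 in the others. The ratio of mitochondrial to nuclear member UMIs ran from 2.356 in cluster 1 to 2.562 in cluster 5. Within clusters, a cell's nuclear member share of its non-mitochondrial UMIs and its mitochondrial member share had Spearman correlations of 0.36 to 0.47 over 1092 to 3925 cells, given as a description since the cells share a library.

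**Figure D5:**
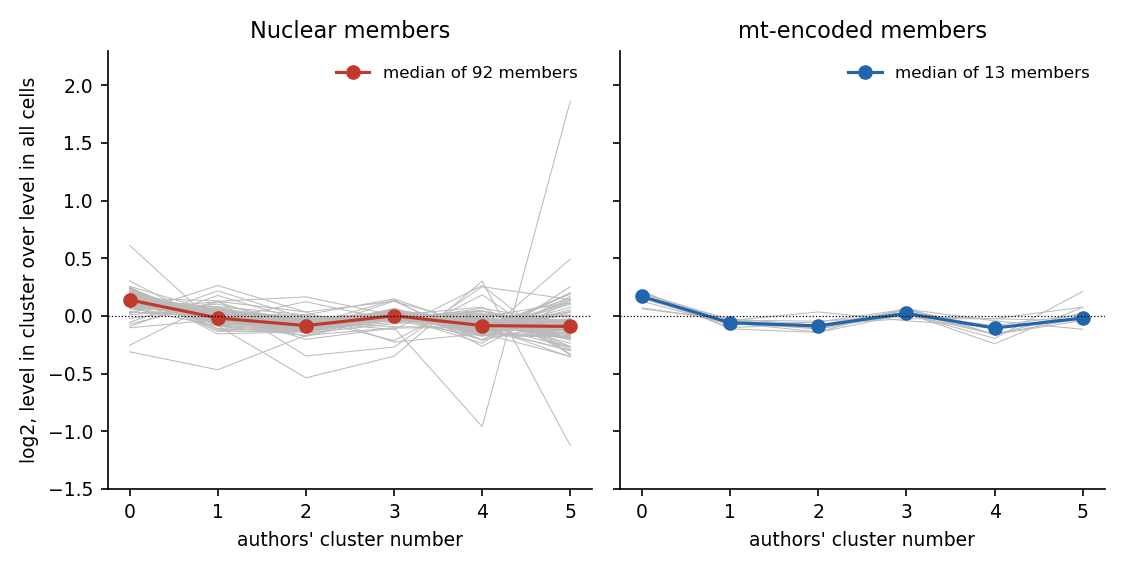
Level in each of the authors' clusters over the level in all cells, on a log2 scale, for 92 nuclear members (left) and 13 mitochondrially encoded members (right) with at least 1000 UMIs. Grey lines are single members and the coloured line is their median; both medians are highest in cluster 0, and the grey line that climbs at cluster 5 is Cox6a2.

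Each UMI stands for 1 captured molecule and was not scaled by length, but capture and assignment to a gene can differ between genes. The order of genes below is therefore one of molecules counted. Cox8a led the nuclear members with 2011 per 1000000 UMIs, then Cox4i1 with 1582, Ndufa4 with 1474 and Ndufc2 with 1466. Sdha, Sdhb and Sdhd of complex II stood at 147.4, 241.1 and 113.7 per 1000000, and Uqcrc1 and Uqcrc2 at 218.0 and 184.8. Among the c subunit genes the order was Atp5g2 with 1107, Atp5g1 with 878.8 and Atp5g3 with 539.8. Of the mitochondrial genome, mt-Atp6 was highest with 26660 and mt-Nd6 lowest with 53.7 per 1000000. The gene mt-Nd6 is the protein gene of the other strand. The gene mt-Atp8, which overlaps mt-Atp6 on the same strand, held 75.6 per 1000000. How far capture and assignment set these levels was not tested.

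The other 22 nuclear members were highest outside cluster 0, 9 of them in cluster 5. These 9 are 9.78% of the 92 members, beside 14.85% of the 6150 genes. Cox6a2 had 15.2, 13.7, 16.8, 17.6, 9.70 and 68.7 UMIs per 1000000 in clusters 0 to 5, so cluster 5 was 7.09-fold above cluster 4. Uqcrq, a small complex III subunit, had 1531 per 1000000 in cluster 5 and 964.4 to 1140 in the others. Cox6b2, like many members, was highest in cluster 0 and lowest in cluster 5, with 29.9 and 8.97 per 1000000, a ratio of 3.333 beside the members' median of 1.239. The muscle form Cox7a1 was at 1.38 per 1000000 over all cells, Cox8b at 1.35, Ndufa4l2 at 0.224 and Cox4i2 at 0.112, the last from 7 UMIs. The single-cell table lists Atp5o in 2 rows made unique by a suffix, with 53168 UMIs in Atp5o.1 and 5 in Atp5o.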

How the data were processed

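The data were bulk RNA-seq of 4 NSPC cultures and 2 whole DG samples, and a single-cell library of mixed cultures. The bulk table holds raw whole-number counts for each gene as the authors deposited them. Per the submitters' processing notes, HISAT2 2.0.6, Subread and featureCounts were used after CASAVA 1.8.2, on an assembly named as GRCh38, although the symbols are mouse symbols; no source here states the strand and counting options. The single-cell values deposited by the authors are natural log values of UMIs scaled to 10000 in each cell with 1 added, and the notes name Cell Ranger 3.1.0 and Seurat 3.1.0. All values above 0 came back as whole UMIs within 0.01. No source here says how doublets were treated, no doublet caller was run, and no barcode occurred in more than 1 cluster.

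Groups came from the labels. The test was edgeR's quasi-likelihood test (version 4.0.16, R 4.3.3, robust, TMM, default low-count filter, Benjamini-Hochberg over all genes, threshold 0.05), with group as the only term, and with sex in the 4 cultures. The step was tested on simulated data in which few genes changed, equally up and down. It therefore does not show how the step performs where 77.3% of genes are called, as between these groups. DESeq2 1.42.0, other scalings and filters, each library left out, trends with length and GC, thinning, pseudogene entries and a replicate block were alternatives. Libraries named F1 or M2 in both groups share only a name: the deviations of the 2 pairs correlated at 0.045 and 0.06. Gene positions, lengths and GC content came from GENCODE M21 on GRCm38. CPM is not scaled for length, so bulk levels are compared within a gene. Named genes were all mitochondrially encoded members, in each nuclear group the 2 with the highest mean CPM and the largest called difference each way, listed paralogues, the carriers and the 2 most abundant genes of each pathway list; a few that this rule covers are not reported here. Further genes were named after their values were known, as examples of a count or where the text says so. The members, lists and tests were chosen with earlier results of these data known. Exact intervals are 95% and cover counting error only.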

Additional observations from a re-analysis of the deposited data

Results flagged for a closer look

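Among the 4 cultures, 7 of 52 named members had a sample far from the other 3 by Dixon's criterion for the gap over the range, and 11 of 114 tested members did. The nominal rate of the criterion is about 1 in 20. The share over all genes was not taken and some of these genes hold few counts, so the members are not read as unusual. Culture M1 was the high one for mt-Co3 at 1.15 CPM, mt-Nd4 at 0.669 CPM, Cox7a1 at 1.72 CPM and Sdha at 716 CPM. Culture F1 was high for mt-Nd2 at 0.248 CPM and Cox7b2 at 0.496 CPM, which are 3 and 6 counts. Culture F2 was high for Ndufb3 at 89.3 CPM, a gene of chromosome 1, where the median of all genes in F2 was 1.37 times that of the other cultures. Ndufb3 was named after its values were seen. No cause of these values was tested.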

How the results depend on the processing

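The 79 nuclear members higher and the 10 mitochondrially encoded members lower stayed within 1.5 times those counts under every alternative run. With the replicate block on the 4 libraries named F1 or M2, 76 nuclear members were higher, 2 lower and 10 mitochondrially encoded members lower; the numbers share only a name. The nuclear members called lower, 3 in all, numbered 5 with DESeq2 size factors and 6 with length and GC trends removed. The median log2 difference of the nuclear members, 0.88, was 1.06 with upper quartile factors, which moved the median of all genes by 0.18. It was 0.74 with length and GC trends removed. Relative to all genes it was 1.01 in both the TMM and the upper quartile scaling. That sameness was fixed in advance, since a scaling factor shifts all genes alike. With trends removed it was 0.8 relative to all genes. The trend removal turned Uqcrc2 to -0.31 and Ndufb3 to -0.46. Members called by sex were 2 without a filter and 0 to 1 with a culture left out, and all genes called by sex were 50 with DESeq2, 273 without a filter and 3 to 81 with a culture left out. The ratio of nuclear members between clusters 0 and 4 was 1.206 with mitochondrial UMIs left out of the total. Over the named genes, 903 values kept direction and side of the threshold, 36 lost the call, 16 gained it and 2 reversed; the causes were not tested. Depth limits mt-Nd3, mt-Nd4l, mt-Atp8, Cox4i2, Cox7b2 and Cox8c, which had 0 to 29 counts in a group.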
